A study of Mus musculus with 3 samples.

Results

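The genes described here are 8 cytosolic sensors and effectors of foreign nucleic acid, Ddx58, Ifih1, Dhx58, Mavs, Zbp1, Eif2ak2, Adar and Isg20, taken as a list of gene names by a rule that uses no measured value. All 8 were found among the 55536 annotated genes, of which 24180 had a nonzero value in at least 1 library, and they carry 47 annotated transcripts. RNA was read from the chromatin fraction of primary bone marrow-derived macrophages (BMDM) of the strain C57BL/6J, by total RNA-seq after removal of ribosomal RNA. All 3 libraries form 1 group: cells had 12 h of 100 ng/ml lipid A, the TLR4-binding part of bacterial lipopolysaccharide, then 12 h without it, then 30 min of 100 ng/ml lipid A. Sex and age are given as not collected, and no transgene or gene deletion is named. The labels give 3 biological replicates as separate biosamples with 1 shared donor identifier, so p-values measure only the spread between these samples. No macrophages without lipid A or with a single exposure were analysed here, so the levels are not a response. Replicate 1 was made from 1 µg of RNA, replicate 2 from 250 ng and replicate 3 from 500 ng, so input and replicate cannot be told apart.

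Cells recognise viral RNA in the cytosol through helicases of the RIG-I-like receptor family. RIG-I, encoded by Ddx58, binds RNA with a triphosphate or diphosphate at its end, MDA5, encoded by Ifih1, binds long double-stranded RNA, and LGP2, encoded by Dhx58, lacks the signalling domains and tunes both. RIG-I and MDA5 signal through MAVS, an adaptor on the mitochondrial membrane, to the kinases and transcription factors that switch on type I interferon. Other proteins act on the RNA or on the cell itself. ZBP1 binds left-handed nucleic acid and can start cell death, PKR, encoded by Eif2ak2, halts translation when it binds double-stranded RNA, ADAR edits adenosine to inosine in double-stranded RNA, and ISG20 is an exonuclease that degrades RNA. Most of these genes are known as interferon-stimulated genes, whereas Mavs is known as a gene expressed in most cells without induction.

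Because the interferon-stimulated response element (ISRE) is the known promoter element of many interferon-stimulated genes, the promoter windows of the members are shown before their levels. The windows come from RefSeq on GRCm38.p6, the build also called mm10, and run from 250 bases before to 50 bases after a start site. They were held for 6 of the 8 members as 10 windows, and not for Dhx58 and Zbp1. The 6 windows printed are the 3 that hold an ISRE core, the long-form window of Adar, which holds a shorter form of it, and, for comparison, the Mavs window and the upstream window of Adar. Each is written 5′ to 3′ on the gene's strand, and capitals mark GAAANNGAA on either strand.
Ddx58, chr4:40239776-40240075, minus strand: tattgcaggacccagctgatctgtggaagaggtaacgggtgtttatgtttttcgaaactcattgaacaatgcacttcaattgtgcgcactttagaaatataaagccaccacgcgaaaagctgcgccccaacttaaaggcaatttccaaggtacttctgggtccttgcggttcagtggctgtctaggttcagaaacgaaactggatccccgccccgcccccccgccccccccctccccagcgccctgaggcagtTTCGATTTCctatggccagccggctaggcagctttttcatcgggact
Ifih1, chr2:62646206-62646505, minus strand: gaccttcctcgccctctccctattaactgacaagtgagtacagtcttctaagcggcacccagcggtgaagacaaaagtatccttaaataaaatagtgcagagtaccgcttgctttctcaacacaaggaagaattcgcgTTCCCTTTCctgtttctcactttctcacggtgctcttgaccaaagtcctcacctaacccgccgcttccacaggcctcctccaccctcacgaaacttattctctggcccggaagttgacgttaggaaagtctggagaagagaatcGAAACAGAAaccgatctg
Eif2ak2, chr17:78882523-78882822, minus strand: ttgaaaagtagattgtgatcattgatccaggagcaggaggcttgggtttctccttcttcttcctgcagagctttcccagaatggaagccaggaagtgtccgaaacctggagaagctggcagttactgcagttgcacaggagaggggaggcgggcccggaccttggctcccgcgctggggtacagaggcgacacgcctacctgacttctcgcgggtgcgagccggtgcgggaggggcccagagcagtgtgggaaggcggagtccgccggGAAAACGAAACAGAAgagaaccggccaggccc
Adar long-form start, chr3:89730468-89730767, plus strand: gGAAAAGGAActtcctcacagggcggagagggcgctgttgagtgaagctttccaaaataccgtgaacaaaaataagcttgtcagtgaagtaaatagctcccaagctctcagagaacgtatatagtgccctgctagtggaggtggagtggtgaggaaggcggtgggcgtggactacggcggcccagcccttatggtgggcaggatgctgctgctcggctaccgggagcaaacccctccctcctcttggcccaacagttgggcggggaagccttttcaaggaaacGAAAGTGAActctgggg
Adar upstream start, chr3:89714772-89715071, plus strand: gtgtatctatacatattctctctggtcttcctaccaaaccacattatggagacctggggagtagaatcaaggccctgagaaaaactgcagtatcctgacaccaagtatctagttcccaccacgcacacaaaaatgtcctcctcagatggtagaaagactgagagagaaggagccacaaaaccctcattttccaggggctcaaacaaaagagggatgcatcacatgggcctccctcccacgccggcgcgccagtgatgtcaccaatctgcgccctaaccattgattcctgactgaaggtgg
Mavs, chr2:131233813-131234112, plus strand: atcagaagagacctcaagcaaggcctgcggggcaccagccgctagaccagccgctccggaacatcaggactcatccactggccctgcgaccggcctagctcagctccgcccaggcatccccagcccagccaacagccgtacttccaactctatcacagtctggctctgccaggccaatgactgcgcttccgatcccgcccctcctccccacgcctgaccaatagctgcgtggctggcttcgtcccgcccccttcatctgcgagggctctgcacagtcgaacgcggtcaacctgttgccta

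The ISRE core GAAANNGAAA, searched on both strands, was present in 3 of the 10 windows, those of Ddx58, Ifih1 and Eif2ak2. Over all 32851 RefSeq windows of the same length, 3.44% held it. In each of these 3 windows the match began after the RefSeq start site, at position 3 in Ddx58, 33 in Ifih1 and 19 in Eif2ak2, counting the first transcribed base as 1. The Ifih1 start used is 62646255, that of the retained-intron model Ifih1-205. Its coding models Ifih1-201 and Ifih1-202 start at 62646211 and 62646153, so the Ifih1 match lies before both. GAAANNGAA, the same core without its last base, is a form chosen after the Adar windows had been read. It was present in 4 windows, the fourth being the Adar long-form window with GAAAGTGAA from position 34 and GAAAAGGAA from position -249, and 8.56% of all windows held it. The Eif2ak2 window held 2 overlapping matches of the shorter form, GAAAACGAA from position 19 and GAAACAGAA from position 25. The Adar upstream window, the Mavs window and the 3 Isg20 windows held neither form. The STAT-type element TTCNNNGAA was found in 3 windows, 1 each of Eif2ak2, Adar and Isg20, against 8.30% of all windows. An NF-kB site was found in 1 Isg20 window, against 8.46% of all windows. Neither of these 2 elements overlapped an ISRE core in a member's window. The RefSeq start of the Adar long form lies 30 bases before the start of its annotated transcripts in the deposited tables. These are matches of letters in a fixed window, and binding was not measured.

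All 8 members had chromatin RNA above 1 TPM (a length-corrected transcript abundance, scaled to the same sum in each library) in the limma test with Benjamini-Hochberg adjustment at 0.05. The same test called 51.1% of all genes with a nonzero value and 61.8% of the protein-coding genes among them, so passing this floor sets a gene apart only weakly. Against a floor of 50 TPM the test called 5 of the 8 members, namely Ddx58, Eif2ak2, Adar, Zbp1 and Dhx58, against 2.51% of all genes. Ifih1 missed this second floor narrowly (limma adjusted p = 0.0532), and Isg20 and Mavs lay below it. These calls use TPM summed over all annotated transcript models of a gene. Over protein-coding models only, described below, Adar had 80.3, Eif2ak2 75.8, Ddx58 53.4 and Dhx58 51.7 TPM. Zbp1 had 31.1 TPM there, but 67.4 TPM in the second transcript table, and no floor was tested on that scale. The median member had a mean of 129 TPM, against 2.02 TPM for all genes tested and 4.17 TPM for the protein-coding ones. The 8 means span from 7.40 TPM for Mavs to 247 TPM for Ddx58.

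Among the 3 helicase receptors, Ddx58 (ENSMUSG00000040296.15, chromosome 4, 40203773 to 40239828, minus strand) had the highest level in the gene table, with 323, 217 and 201 TPM in replicates 1, 2 and 3. Replicate 1 stood above the other libraries, and the mean was 247 ± 66.2 TPM (SD, n = 3), at percentile 98.8 of protein-coding genes with a nonzero value. Its log2 value lay 7.78 ± 0.20 (SE) above the floor of 1 TPM (limma adjusted p = 3.94e-05). Ifih1 (ENSMUSG00000026896.14, chromosome 2, 62595798 to 62646255, minus strand) had 167, 104 and 117 TPM, again highest in replicate 1, with a mean of 129 ± 33.0 TPM (SD, n = 3) and percentile 97.1. Dhx58 (ENSMUSG00000017830.15, chromosome 11, 100694884 to 100704271, minus strand) had 126, 113 and 107 TPM, with the smallest relative spread of the 8 members, a mean of 115 ± 9.52 TPM (SD, n = 3) and percentile 96.6. The receptor without signalling domains thus had a level near that of Ifih1 in the gene table. Over protein-coding models only, the 3 receptors lay close together, with means of 53.4 TPM for Ddx58, 51.7 for Dhx58 and 49.7 for Ifih1. On that scale Dhx58 was above Ddx58 in replicate 2, with 50.6 against 46.1 TPM.

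Mavs (ENSMUSG00000037523.13, chromosome 2, 131234063 to 131248025, plus strand), the shared adaptor of both signalling receptors, had the lowest level of the 8, with 5.30, 9.09 and 7.81 TPM. Unlike the other 7 members it was lowest in replicate 1, and its mean of 7.40 ± 1.93 TPM (SD, n = 3) lay at percentile 59.6 of protein-coding genes. It lay 2.73 ± 0.21 (SE) above 1 TPM on the log2 scale (limma adjusted p = 3.51e-04). Its 157, 389 and 314 expected counts, the reads assigned to it, make it one of the 2 members resting on few reads.

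The 3 effectors that act on double-stranded or left-handed nucleic acid were all high. Eif2ak2 (ENSMUSG00000024079.4, chromosome 17, 78852564 to 78882573, minus strand), which encodes the translation-halting kinase PKR, had 264, 216 and 186 TPM, with a mean of 222 ± 39.4 TPM (SD, n = 3) and percentile 98.7. Adar (ENSMUSG00000027951.16, chromosome 3, 89715022 to 89753446, plus strand), the editing enzyme, had 208, 194 and 153 TPM, with a mean of 185 ± 28.5 TPM (SD, n = 3) and percentile 98.3. Both genes were highest in replicate 1 and lowest in replicate 3. Zbp1 (ENSMUSG00000027514.14, chromosome 2, 173206612 to 173218923, minus strand) had 148, 124 and 116 TPM in the same order of libraries, with a mean of 129 ± 16.5 TPM (SD, n = 3) and percentile 97.1. Isg20 (ENSMUSG00000039236.18, chromosome 7, 78913424 to 78920396, plus strand), the exonuclease, had 30.7, 13.2 and 14.2 TPM. Replicate 1 stood above the other libraries, and the mean was 19.4 ± 9.84 TPM (SD, n = 3) at percentile 77.3, from 235, 144 and 142 expected counts. Isg20 lay 4.04 ± 0.31 (SE) above 1 TPM on the log2 scale (limma adjusted p = 3.31e-04).

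**Figure D1:**
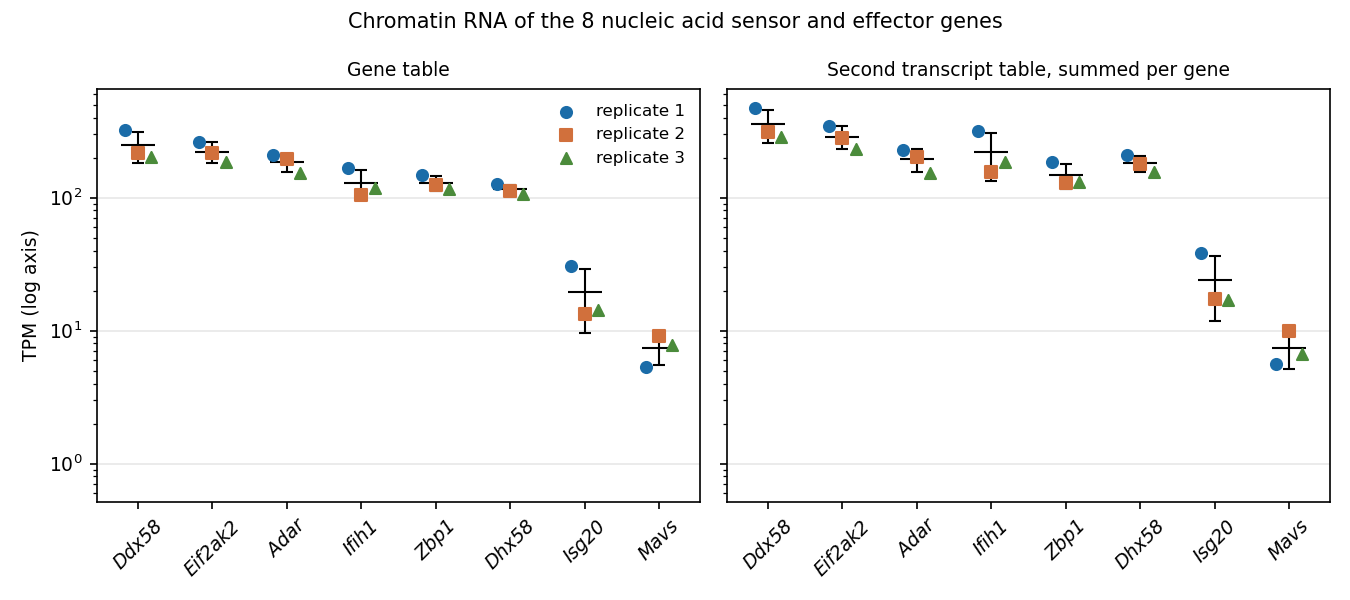
TPM of each member in each of the 3 libraries (points, log axis), with the mean and SD of the libraries (bar and whiskers), in the gene table on the left and in the second transcript table summed per gene on the right. The 6 genes on the left of each panel lie above 100 TPM in every library of the gene table, and Isg20 and Mavs lie at 30.7 TPM or below.

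By mean TPM the order was Ddx58, Eif2ak2, Adar, Ifih1, Zbp1, Dhx58, Isg20 and Mavs. Neighbours were compared by the within-library log2 ratio in a two-sided exact sign-flip permutation test, which with 3 libraries cannot give a p under 0.25, so the sign and the SD are read instead. The order was taken from the mean TPM of these same libraries, so positive signs were favoured in advance and are a description only. Ddx58 exceeded Eif2ak2 by 0.14 ± 0.14 (SD, n = 3) on the log2 scale, no more than the spread. Eif2ak2 exceeded Adar by 0.26 ± 0.10, Adar exceeded Ifih1 by 0.53 ± 0.32 and Zbp1 exceeded Dhx58 by 0.16 ± 0.06, each positive in 3 of 3 libraries. Ifih1 and Zbp1 were not ordered, with ratios of 0.17, -0.26 and 0.02. The gap that sets off the lower pair was far wider, with Dhx58 above Isg20 by 2.68 ± 0.57. Isg20 exceeded Mavs by 1.31 ± 1.07, or by 0.70 without replicate 1. Over coding models only the mean difference was 0.38, and its sign rested on replicate 1. On that scale Isg20 had 15.5, 7.06 and 6.74 TPM and Mavs 5.30, 8.39 and 7.54 TPM, so Mavs was higher in replicates 2 and 3. With coding models of the second transcript table the mean difference was 1.42. Over these 7 pairs the exact permutation p was 0.25 for 6 (adjusted p = 0.292) and 1 for Ifih1 and Zbp1.

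The second transcript table, summed per gene, gave higher levels for all 8 members, from 1.01 times for Mavs to 1.70 times for Ifih1. In it Ddx58 had 474, 313 and 286 TPM and Ifih1 had 316, 156 and 187 TPM. The order there was Ddx58, Eif2ak2, Ifih1, Adar, Dhx58, Zbp1, Isg20 and Mavs, so the places of Adar, Ifih1, Zbp1 and Dhx58 depend on the table. Adar minus Ifih1 was -0.13 and Zbp1 minus Dhx58 was -0.30 on its log2 scale, each of the opposite sign to the gene table.

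Chromatin RNA includes transcripts whose introns are not yet removed, and the annotation holds models with retained introns or without a reading frame. How the reads of each member fell on such models differed widely between the members. The share of a gene's expected counts on protein-coding models was 96.2 ± 3.91% (SD, n = 3) for Mavs, 89.8 ± 1.90% for Adar, 84.9 ± 2.86% for Eif2ak2 and 75.5 ± 4.17% for Dhx58. It was 59.7 ± 3.33% for Isg20, 56.0 ± 2.89% for Ifih1, 47.4 ± 5.98% for Ddx58 and 8.98 ± 2.03% for Zbp1. In the second transcript table the share was lower for Mavs, at 68.2 ± 2.60%, and higher for Zbp1, at 17.9 ± 3.54%. Models are assigned reads by estimation from shared exons, and these shares describe that assignment, not spliced and unspliced molecules that were counted.

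Zbp1 was the extreme case. Its retained-intron model Zbp1-203, 3325 bases long, took 90.8, 93.2 and 89.1% of the gene's counts in replicates 1, 2 and 3, and 82.1 ± 3.54% in the second table. This model holds 1 intron of the coding model Zbp1-201 inside an exon. No other model of the members annotated as retained intron, those of Isg20, Adar and Eif2ak2 included, holds a whole intron of its gene's longest coding model. Zbp1-201, which encodes 411 codons, took 5.72, 3.97 and 7.66% of the counts. Every library thus put most Zbp1 reads on a model with no annotated reading frame.

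Ifih1 followed with 2 models annotated as retained intron, although neither holds a whole intron of the coding model inside an exon. Ifih1-203, which has 3 exons, took 32.7 ± 2.32% of the counts and Ifih1-205, which has 8, took 11.2 ± 1.14%. The coding models Ifih1-201, of 1025 codons, and Ifih1-202, of 976 codons, took 42.2 ± 3.00% and 13.8 ± 5.87%. Ifih1-202 was the unsteady one, with 7.02% in replicate 1 against 16.6 and 17.7% in replicates 2 and 3.

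Ddx58 has 10 models, 8 of them processed transcripts without a reading frame. Its 926-codon coding model Ddx58-201 took 41.7, 46.9 and 53.6% of the counts, lowest in replicate 1, where the gene's TPM was highest. Of the processed transcripts, Ddx58-205 took 18.9 ± 0.61%, Ddx58-210 13.4 ± 1.77% and Ddx58-207 11.8 ± 2.99%. In Dhx58 the 678-codon model Dhx58-201 took 75.5 ± 4.17%, and the processed transcript Dhx58-204 took 14.8 ± 0.55%. Dhx58-203, another processed transcript, took 8.60 ± 2.83% in the first table and 11.0 ± 3.14% in the second.

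For Eif2ak2 the 515-codon model Eif2ak2-201 took 84.9 ± 2.86% of the counts, and no other model reached 10% in either table. Isg20 split its counts among Isg20-205, annotated as retained intron, with 40.3 ± 3.33%, and the coding models Isg20-204, of 300 codons, with 30.2 ± 6.25%, and Isg20-201, of 181 codons, with 24.4 ± 4.49%. Mavs divided between Mavs-201 and Mavs-202, which start close together and both encode 503 codons, with 52.7 ± 2.90% and 43.5 ± 5.93% in the first table. In the second table they took 28.2 ± 7.32% and 39.9 ± 4.93%, the other order by mean. The nonsense-mediated decay model Mavs-203 took 3.80 ± 3.91% in the first table but 30.0 ± 2.26% in the second, the widest disagreement between the tables for a Mavs model.

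**Figure D2:**
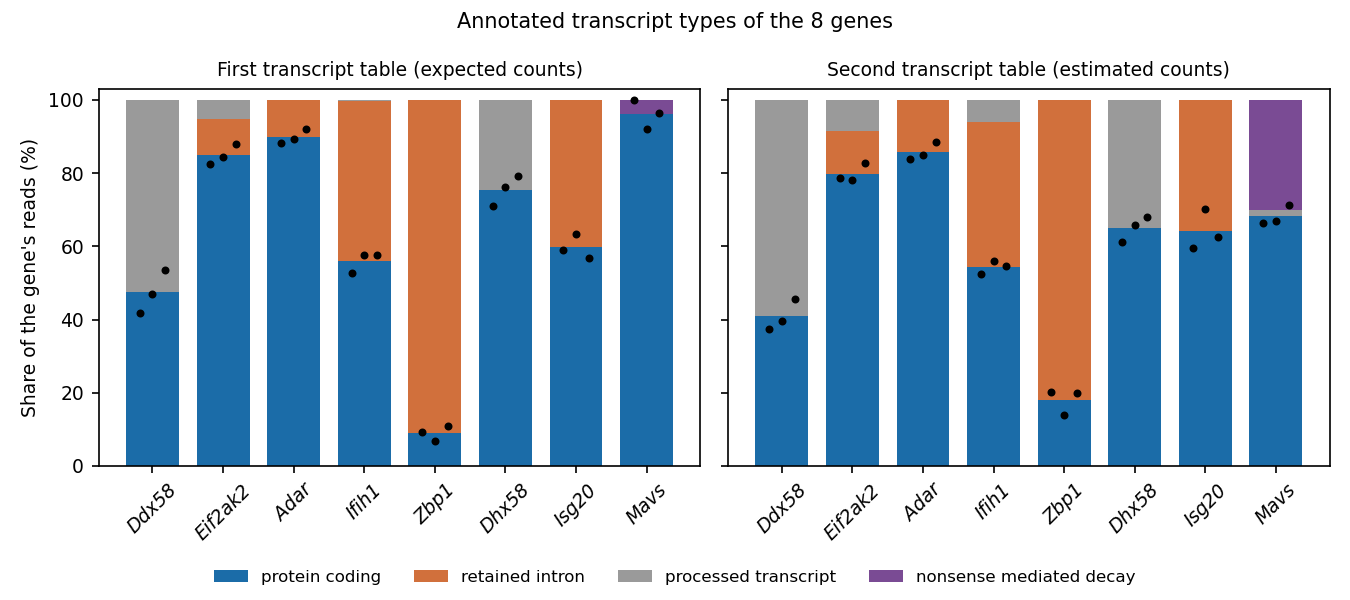
Mean share of each member's reads by annotated transcript type, in percent, from the first transcript table (left) and the second (right); black points give the protein-coding share in replicates 1 to 3 from left to right. Zbp1 is the gene with the smallest coding share in both tables, and the Mavs coding share differs most between them.

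TPM and counts weigh short models differently, and this bears on the levels above, since the gene's TPM is the sum over its models. The coding share of TPM was 43.9 ± 5.30% for Adar, 34.6 ± 4.82% for Eif2ak2 and 22.3 ± 4.79% for Ddx58 (SD, n = 3), well under their shares of counts. Summed over coding models only, an alternative added after seeing the data, Adar had 80.3 ± 3.38 TPM, Eif2ak2 75.8 ± 7.42 TPM and Ddx58 53.4 ± 6.56 TPM. On that scale Dhx58 had 51.7 ± 2.34 TPM, Ifih1 49.7 ± 7.49 TPM and Zbp1 31.1 ± 5.37 TPM, while Isg20 had 9.76 ± 4.96 TPM and Mavs 7.08 ± 1.60 TPM. On this scale Adar led the order in place of Ddx58. The second table, summed in the same way, gave another order, with Eif2ak2 at 81.3 ± 11.5 TPM, Adar at 73.8 ± 6.38 TPM and Zbp1 at 67.4 ± 20.8 TPM, above Ddx58 at 55.9 ± 11.9 TPM, Ifih1 at 51.8 ± 14.6 TPM and Dhx58 at 51.3 ± 2.43 TPM. The place of Zbp1 among the higher 6 members thus depends on the table, whereas Isg20 and Mavs were the lowest in both tables with all models and with coding models only.

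Adar has alternative starts that encode different proteins, which allows a closer view. Adar-201 and Adar-203 start at 89730748 and encode the long form, known as p150 and as the interferon-inducible, mainly cytoplasmic form. The models Adar-204 and Adar-205 share this start but encode 660 and 634 codons, and together took 0.11, 0 and 0% of the counts in replicates 1, 2 and 3. A start 15726 bases upstream, at 89715022, belongs to Adar-202, which encodes 930 codons, the shorter constitutive form known as p110. The long-form models, of 1152 and 1178 codons, together took 84.1, 84.3 and 83.6% of the gene's counts in replicates 1, 2 and 3, within 1 percentage point of each other. Models of the upstream start took 4.59, 6.13 and 9.14%, lowest in replicate 1.

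In TPM the long-form start had 79.1, 78.0 and 70.3, against 5.03, 7.61 and 8.27 for the upstream start. The long-form start thus exceeded the upstream start in every library, by ratios of 15.7, 10.3 and 8.50, and by 20.6, 12.6 and 10.3 in the second table. The upstream models include Adar-206 and Adar-209, which have no reading frame. Against Adar-202 alone the ratios were 23.9, 20.3 and 11.5, and 32.2, 23.1 and 13.6 in the second table. Replicate 1 had the highest ratio in both tables. The window of the long-form start was the Adar window with the shorter ISRE core, shown above, and the upstream window held none. That shorter form was chosen after the Adar windows had been read, and no Adar window held the planned core GAAANNGAAA. The motif therefore says nothing on the ratios, and a link between them was not tested. Most bases are shared by both forms, so the split rests on reads over the first exons and on their estimated assignment. The internal fragments Adar-207 and Adar-208, short models annotated as retained intron with no annotated link to either start, took 9.33 ± 1.95% of the counts but 102 ± 25.1 TPM, more than the long form.

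**Figure D3:**
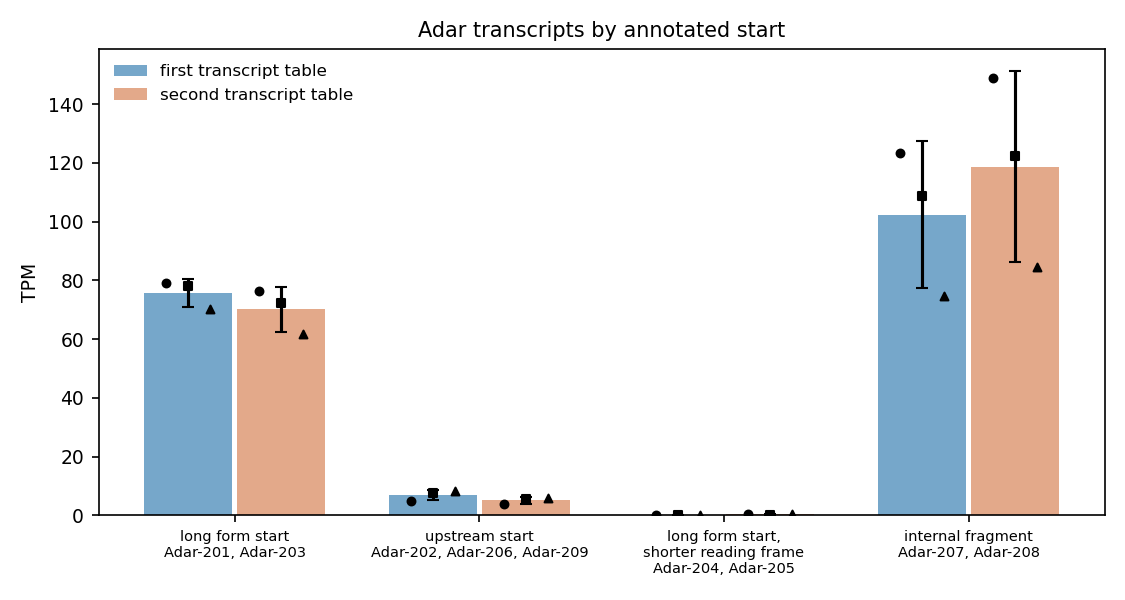
TPM of Adar transcripts grouped by annotated start, as the mean and SD of 3 libraries (bars and whiskers) with each library as a point (circle, replicate 1; square, replicate 2; triangle, replicate 3), in both transcript tables. In the first table the long-form start lies between 70.3 and 79.1 TPM and the upstream start between 5.03 and 8.27 TPM.

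The members did not vary alike between libraries. In 7 of the 8, Mavs being the exception, TPM was highest in replicate 1, against 28.4% of the protein-coding genes called above 1 TPM. This was not particular to the members among the related genes described below. It held for 4 of 4 genes of the oligoadenylate synthetase group, 5 of 8 endosomal sensors and adaptors and 7 of 13 genes downstream of MAVS. Around PKR it held for 0 of 8 genes. In TMM-scaled CPM, which scales counts by library size without length correction, replicate 1 differed from the mean of replicates 2 and 3 on the log2 scale by 1.24 for Isg20, 0.62 for Ifih1, 0.52 for Ddx58, 0.33 for Zbp1 and 0.32 for Eif2ak2. It was 0.15 for Adar and 0.11 for Dhx58, and Mavs went the other way at -0.61. The median deviation of protein-coding genes in replicate 1 was -0.05. Replicate 1 had the largest RNA input and the smallest library, and the part of either in these deviations was not tested.

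The count of members highest in replicate 1 depends on the scaling. Protein-coding genes took 33.3% of all TPM in replicate 1, 29.8% in replicate 2 and 31.5% in replicate 3. When TPM was rescaled to the protein-coding sum, 5 of 8 members were highest in replicate 1 and 3 in replicate 2, and over coding models only the count in replicate 1 was 6. The edgeR biological coefficient of variation, the spread between libraries beyond counting error, was 0.330 for Isg20, at percentile 96.1 of protein-coding genes among the 14140 genes kept. It was 0.167 for Dhx58, 0.178 for Adar, 0.188 for Eif2ak2 and 0.188 for Zbp1, and 0.209 to 0.224 for Ddx58, Mavs and Ifih1, around the common value of 0.219. Without replicate 1 the Isg20 value was 0.211, so its wide spread rests on that library.

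**Figure D4:**
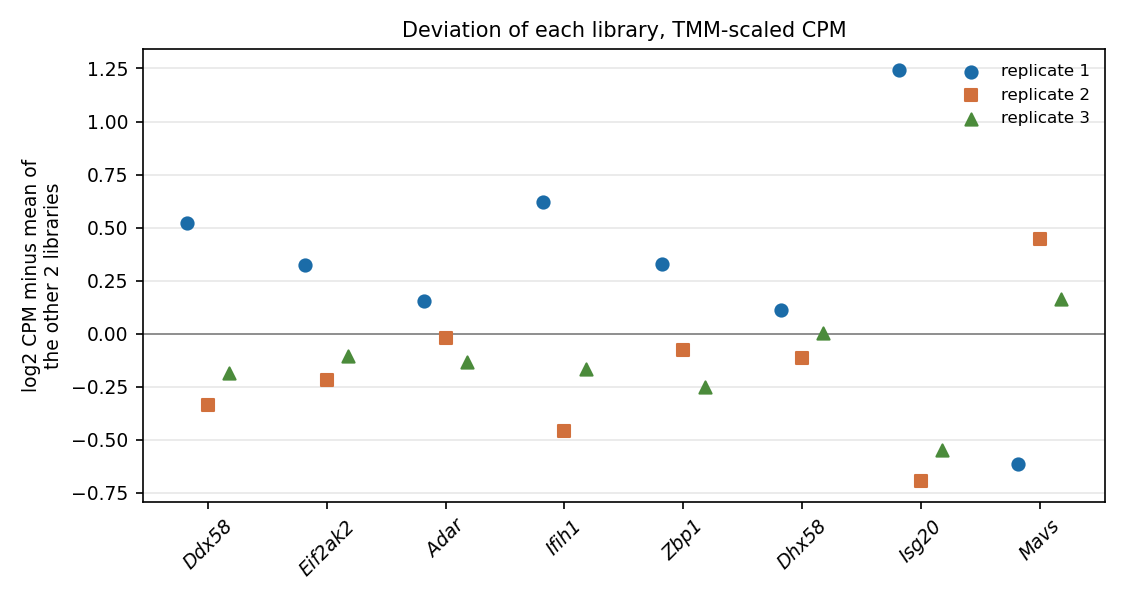
Each library's TMM-scaled CPM as a log2 difference, relative to the mean of both remaining libraries, for the 8 members in order of mean TPM. Replicate 1 lies above 0 for every member except Mavs, and Isg20 reaches 1.24.

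The other genes of nucleic acid sensing, a list of 70 in 10 groups by role, were read in the same fit. Of these, 64 were called above 1 TPM and 12 above 50 TPM, with a median of 32.2 TPM, against 8 and 5 of the 8 members and a median of 129 TPM. Both medians are of TPM over all models of a gene, and coding models alone were summed only for the members. The second transcript table gave 65 calls and a median of 39.4 TPM, and of the 65 genes with a mean above 1 TPM in the gene table, 13 were over 1.5 times higher there and 1 over 1.5 times lower. Values below are from the gene table unless the second is named. Around RIG-I and MDA5, 12 of 13 regulators were called, led by Ddx60, a helicase gene, with 448 ± 85.8 TPM (SD, n = 3), Riok3 with 191 TPM and Zc3hav1 with 140 TPM. Rnf125, a ubiquitin ligase for RIG-I, was listed at 0 in every library. Downstream of MAVS, 12 of 13 were called, led by the kinase Ikbke with 1154 ± 100.0 TPM, the transcription factor Irf7 with 367 TPM, and the kinase Tbk1 with 176 TPM. Ifnb1, which encodes interferon beta and is the usual end point of this signalling, had 1.73, 0.78 and 0.93 TPM and was not called (limma adjusted p = 0.630). Mavs itself lay below the median of this group, 19.5 TPM.

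Among the partners of ZBP1 in cell death, 4 of 5 were called, with Ripk1 at 40.2 TPM, Mlkl at 35.3 TPM and Casp8 at 33.8 TPM, while the adaptor Fadd had 0.71 TPM and was not called. All 8 genes around PKR were called. Of these Ppp1r15a, which encodes the phosphatase subunit that reverses PKR's mark on eIF2, had 220, 72.8 and 385 TPM, spread widely between libraries, and Dhx9 had 66.1 TPM. The paralogs of Adar were low, with Adarb1 at 0.17 TPM and Adarb2 at 0.02 TPM, and neither was called. In the second transcript table Adarb2 had 1.36 ± 0.19 TPM and was called (limma adjusted p = 0.0479), while Adarb1 had 0.58 ± 0.22 TPM and was not. The relatives of Isg20, Rexo4, Aen and Isg20l2, were all called at 51.8, 26.5 and 6.61 TPM.

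In the neighbouring routes, all 4 genes of the oligoadenylate synthetase group were called, led by Oas2 with 282 TPM and Oas3 with 117 TPM. Among DNA sensors 4 of 5 were called, led by Ifi204 with 481 TPM and Aim2 with 119 TPM, then Cgas with 10.8 TPM. Zcchc3, a cofactor of cGAS, had 0.09 TPM and was not called. All 8 endosomal sensors and adaptors were called, led by Unc93b1 with 309 TPM, Tlr7 with 38.4 TPM and Tlr8 with 32.3 TPM. In the second transcript table Tlr7 had 202 ± 87.8 TPM. All 9 genes that remove nucleic acid were called, led by Samhd1 with 716 TPM, Xrn1 with 76.3 TPM and Skiv2l with 52.6 TPM.

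**Figure D5:**
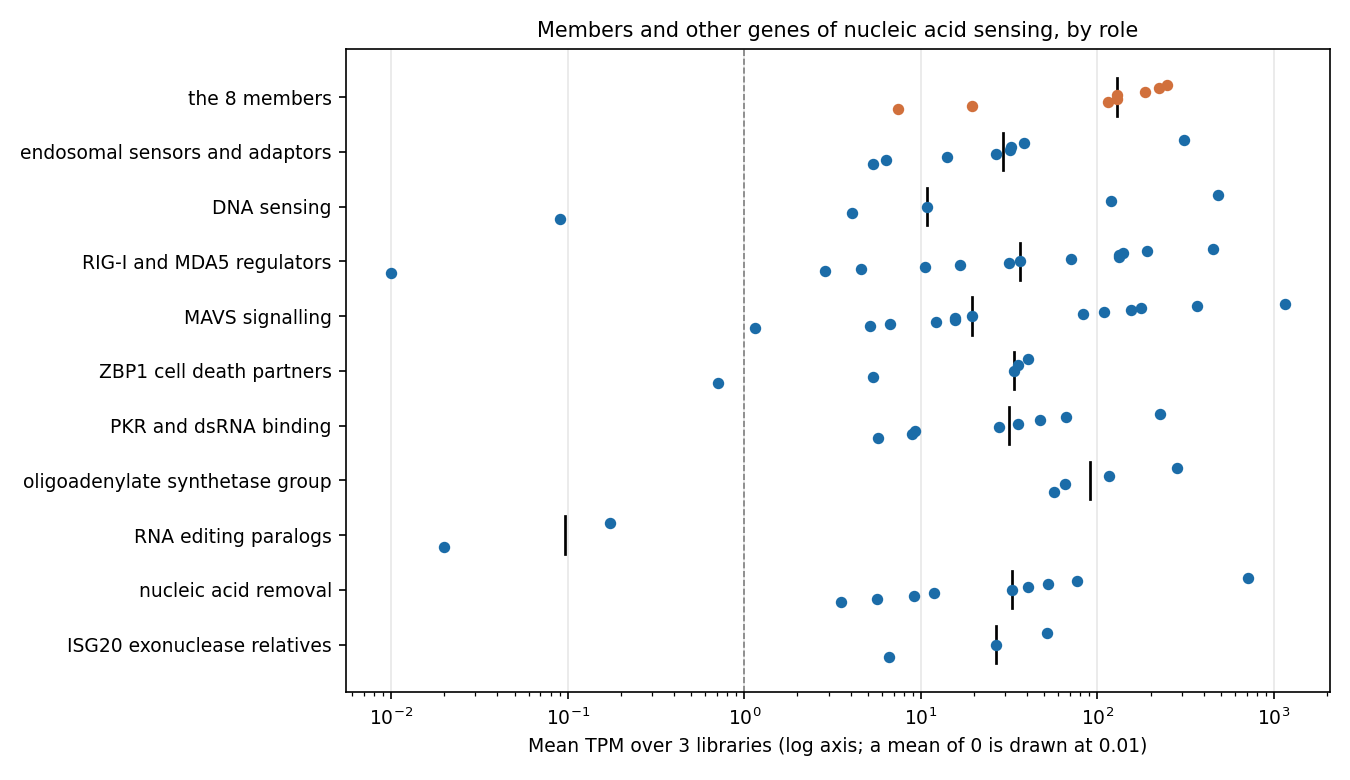
Mean TPM over 3 libraries (log axis) of the 8 members (orange) and of the 70 other genes of nucleic acid sensing (blue), grouped by role, with the median of each group as a black line and 1 TPM dashed. The members' median of 129 TPM lies to the right of the median of each of the 10 other groups.

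The protein-coding genes whose TPM was closest to each member over the 3 libraries, by Euclidean distance on the log2(TPM + 0.1) scale, were found for all 8. They were Rufy3 and Slfn8 for Ddx58, at distances of 0.12 and 0.21, and Apobec3 and Slfn8 for Eif2ak2, at 0.10 and 0.22. For Adar they were Znfx1 and Lyn, at 0.03 and 0.13, and for Zbp1 Fcer1g and Ensa, at 0.03 and 0.07. Ifih1 had Wdr91 and Tmbim6, at 0.11 and 0.14, Dhx58 had Chd9, at 0.04, Mavs had Trappc4 and Mcrs1, at 0.04 and 0.07, and Isg20 had Zeb1 and Gosr1, at 0.25 and 0.30. With 3 libraries this measure mostly finds genes of the same level.

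Overlapping genes and cell identity bear on these values. Adar shares 1365 of its 8118 exonic bases with Chrnb2 on the opposite strand, which had 13.0 TPM, and whether counting used strand is not given in the sources used here. Dhx58 shares 141 bases with the antisense gene Dhx58os, at 4.30 TPM, and Eif2ak2 shares 174 bases with Gm26637, at 7.95 TPM, and 47 with n-R5s29, listed at 0 in the gene table but at 43.6 TPM in the second transcript table. Reads of these pairs may therefore be mixed, and the values of Adar, Dhx58 and Eif2ak2 are uncertain to that extent. As a check of cell type, 8 of 8 macrophage markers were called, summing to 1089, 1086 and 1140 TPM, whereas 1 of 30 markers of other cells was called, the megakaryocyte gene Pf4, and the 30 summed to 9.56, 10.8 and 11.8 TPM with 10 at 0. The endothelial gene Pecam1 missed the call narrowly at 1.59 TPM (limma adjusted p = 0.0546). In the second transcript table the highest of the 30 were Pecam1 at 9.93, Pf4 at 4.59 and Itga2b at 4.40 TPM. The lowest macrophage marker there was Itgam at 49.0 TPM. Total expected counts were 12532722, 18395358 and 18237730 in replicates 1, 2 and 3. In bulk RNA, fewer cells with a transcript and less transcript per cell cannot be told apart.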

How the data were processed

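The authors deposited 1 gene table and 2 transcript tables for each library. Per the file headers, expected counts and TPM stand in the gene table and in the first transcript table. The second transcript table gives TPM with estimated counts, per the file headers. The build is mm10 with annotation release M21, per the deposited text files. The aligner, its version and the use of strand are not given in the labels or file headers.

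Genes were matched by identifier to the 55536 genes of release M21. Rows naming no gene held 1.04%, 0.425% and 0.401% of counts in replicates 1, 2 and 3 and were used in no library size and no test. A count of 0 allows up to 3 counts, which is 0.242, 0.164 and 0.165 CPM, a limit for counting error alone. Between pairs of libraries the chi-square per degree of freedom was 40.1 to 75.9, so the 3 libraries were distinct.

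With 1 group, log2(TPM + 0.1) of the 24180 genes with a nonzero value was tested one-sided against 1 TPM (and 50 TPM) in an intercept-only limma 3.58.1 model, with Benjamini-Hochberg adjustment at 0.05. Differences on this scale are understated for low genes. In simulated data, 2% of 50 genes at 1 TPM, 76% at 2 TPM, 98% at 4 TPM and 100% at 8 TPM were called, over 23420 genes. Spread came from edgeR 4.0.16 with filterByExpr and TMM scaling, on expected counts after rounding them to integers. Pairs of members were compared by an exact sign-flip permutation test. Alternatives were other pseudocounts, floors and filters, the second transcript table, CPM, TMM and DESeq2 1.42.0 size factors, each library left out, and, added after seeing the data, protein-coding transcripts only and a shorter promoter motif.

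The members and lists were named with earlier results of these data known, although the rule for the members reads no value. Named genes were the members, the 3 highest and any uncalled gene of each list by role, the 2 genes nearest each member, overlapping genes, and transcripts with at least 10% of their gene's counts in either table. A few genes that this rule names are not reported here. Ranges over low members and models were read after their values were seen. Protein sequences were not used here. Other software was python 3.11.15 with scipy 1.17.1, pandas 2.3.3, numpy 2.4.6 and matplotlib 3.10.9, and R 4.3.3.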

Additional observations from a re-analysis of the deposited data

How the results depend on the processing

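The count of genes above 1 TPM was 12367, and 19775 with the second transcript table, 7051 with a floor of 5 TPM and 608 with a floor of 50 TPM. At 50 TPM 5 members and 12 of the other genes of nucleic acid sensing were called, against 8 and 64 at 1 TPM. Leaving out 1 library gave 11408 to 11575 genes. All 8 members stayed above 1 TPM under the other pseudocounts, scalings, filter, table and left-out libraries tried, and 7 of them stayed above a floor of 5 TPM. Pair differences changed sign in 9 cases, for which the cause was not tested beyond the change of table, library or transcripts itself. With coding transcripts only, Ddx58 minus Eif2ak2 was -0.51, Eif2ak2 minus Adar -0.087, Ifih1 minus Zbp1 0.68 and Zbp1 minus Dhx58 -0.75 on the log2 scale. With coding transcripts of the second table Ddx58 minus Eif2ak2 was -0.55, but Eif2ak2 minus Adar was 0.13, Ifih1 minus Zbp1 -0.37 and Zbp1 minus Dhx58 0.35. With the second table, Adar minus Ifih1 was -0.13, Ifih1 minus Zbp1 0.52 and Zbp1 minus Dhx58 -0.30. Leaving out 1 library, Ifih1 minus Zbp1 ranged from -0.12 to 0.094, against -0.02 in all libraries. Ddx58 minus Eif2ak2 was 0.060 and Isg20 minus Mavs 0.70 without replicate 1, and Adar minus Ifih1 was 0.35 without replicate 2. Adarb2 was called above 1 TPM in the second table only. Across the alternatives, 18 member levels moved by more than the replicate SD, each under the second table or coding transcripts only, and 54 did not. In 17 of 24 member and library values the deposited TPM lay above the upper bound of the deposited credibility interval for the same gene. Depth limits Mavs and Isg20, which rest on 142 to 389 expected counts. No paired analysis was possible because the replicate numbers stand in 1 group, and the within-library ratios compare genes, not groups.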
